A study of Mus musculus with 3 samples.

Results

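Genes of the kinetochore, the centromere and the spindle checkpoint, 40 in number, were followed in differentiated cultures of C2C12, a mouse myoblast line whose cells fuse into myotubes. They were taken by gene symbol from a table of 24401 loci, each had a row and a single locus, and 40 of 40 had a mean level of 1 FPKM or more over the libraries. FPKM counts sequenced fragments per length of transcript, scaled to the size of the library, so levels can be set side by side between genes. The lowest mean was 2.26 FPKM for Ska1, and no gene of the set lay under the limit of 1.

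There were 3 libraries, 1 per group, all from C2C12 cells differentiated for 72 hours in 2% horse serum with 1 µg/ml insulin and then kept for 24 hours in their medium. The first received conditioned media of S2-013 cells, a human pancreatic cancer line, with 50 µM resveratrol, a plant polyphenol. The second received S2-013 conditioned media alone, collected after 24 hours. The third, the control, received DMEM. Serum in the control and conditioned media and the solvent of resveratrol are unknown here, and no culture with resveratrol alone was analysed here. The labels call the cell type myoblast, and markers of myotubes were present in each library. Myog, the differentiation factor myogenin, stood at 596 FPKM with resveratrol, 313 FPKM in conditioned media and 384 FPKM in control. With 1 library a group there is no spread between cultures, so no difference below carries an SD or a test, and read depth is unknown.

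The kinetochore is the protein assembly that joins a chromosome to the spindle. Its inner layer sits on nucleosomes holding the histone variant CENP-A, its outer layer grips microtubules, and the spindle checkpoint works from unattached kinetochores to delay anaphase. Myotubes have left the cell cycle, while C2C12 cultures also keep mononucleated cells that can divide. By general knowledge, 24 of the genes are transcribed mainly in cycling cells ("cycle-regulated"), 10 are transcribed at all times ("constitutive"), and 6 could not be placed with confidence. The classes were set with earlier results of these data known, so the contrast between them is a description and not an independent test.

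With resveratrol in conditioned media, cycle-regulated kinetochore genes were far lower than in conditioned media alone, and constitutive ones stayed nearer to it. A gene counted as lower or higher when log2((FPKM + 1)/(FPKM + 1)) was -1 or less, or 1 or more, called the size rule here. Of 40 genes, 15 were lower and 0 higher by it, where 4.97% of 11858 loci with a mean of 1 FPKM or more were lower and 1.53% higher. The 15 were 14 of 24 cycle-regulated genes, 0 of 10 constitutive genes and 1 of 6 unplaced genes. The constant of 1 understates the ratio of low genes. At a pseudocount of 5 the count was 9, where 2.05% of all loci passed in either direction. With a limit of 1.5-fold it was 25, where 20.2% passed.

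The class medians show the same split. The median log2 ratio of resveratrol over conditioned media was -1.37 for cycle-regulated genes and -0.30 for constitutive genes, against 0.03 for all loci. The class difference was -1.07, and it was -0.58 at a pseudocount of 5 and -0.68 when the unplaced genes were counted as cycle-regulated. As levels without a pseudocount, the median cycle-regulated gene had 34.1% of its conditioned media FPKM with resveratrol, and the median constitutive gene 80.1%. There were 16 cycle-regulated and 0 constitutive genes below 50%. The cycle-regulated genes together summed to 161 FPKM with resveratrol, 343 FPKM in conditioned media and 284 FPKM in control. The constitutive ones summed to 182 FPKM with resveratrol, 215 FPKM in conditioned media and 238 FPKM in control. In whole cultures, fewer dividing cells and less RNA per cell cannot be told apart.

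The authors' deposited table gives Cuffdiff calls between these single libraries, which compare the libraries and not the conditions. For resveratrol over conditioned media the authors' deposited table calls 32 of the 40 genes lower and 1 higher, where it calls 29.5% of 11033 tested loci lower and 34.1% higher. Among constitutive genes 6 of 10 are called lower in the authors' deposited table, none of them by the size rule. The q-value in the authors' deposited table is 0.000148 for each of the 15 genes past the size rule. This is the lowest q-value among the 40, and genes not past the rule, such as Cenpc1 and Mad2l1, share it.

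**Figure D1:**
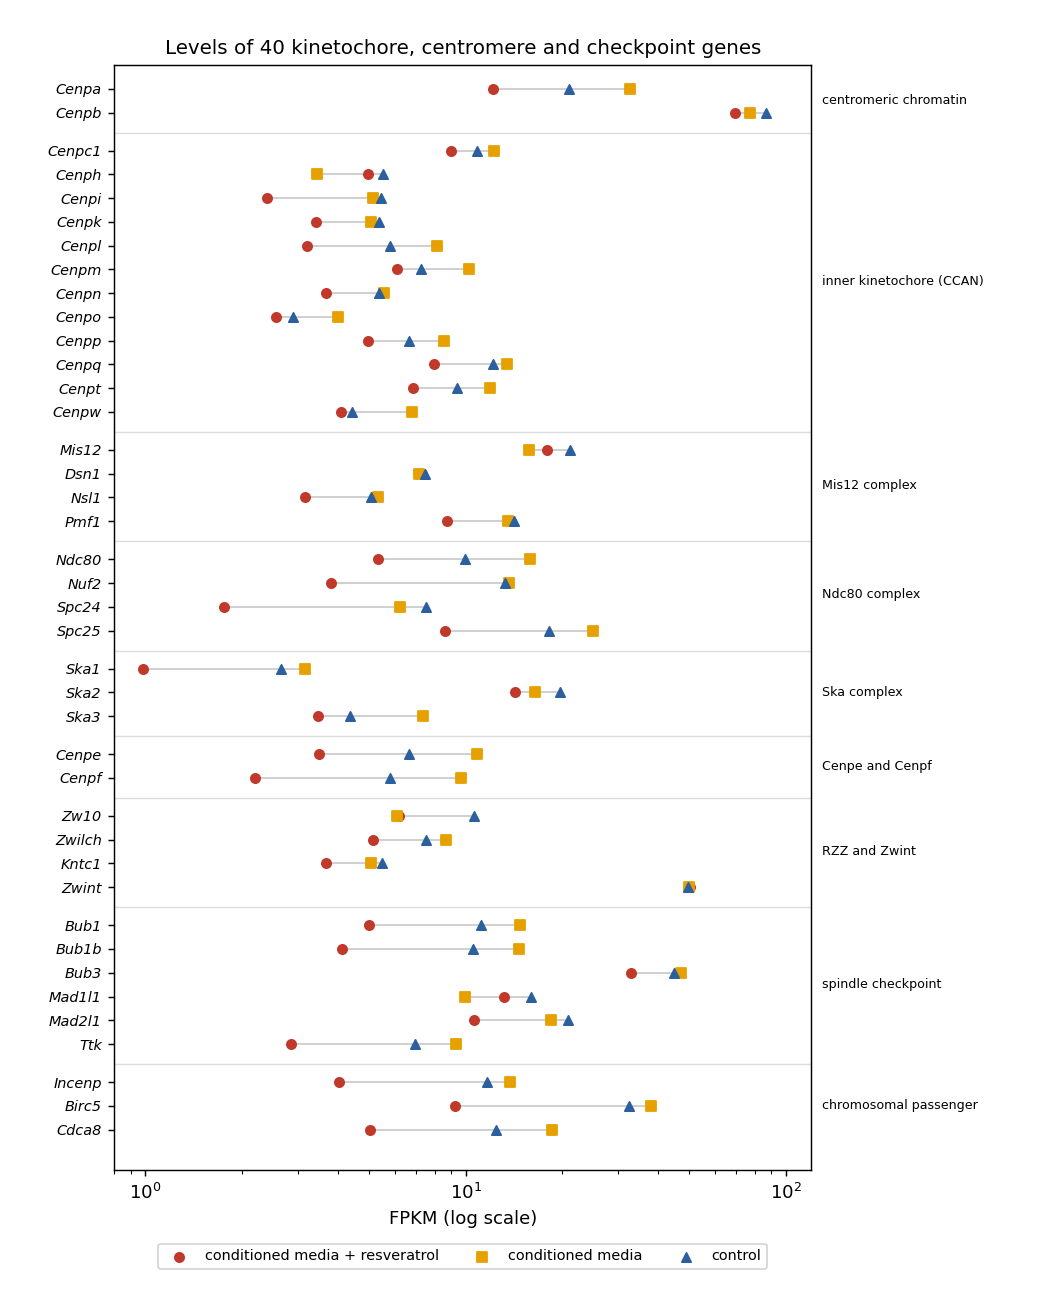
Level of each of the 40 genes in FPKM (log scale), grouped by role down the page, with 1 point per library for conditioned media with resveratrol, conditioned media and control. The resveratrol point is the lowest of the 3 in 34 genes, and the 3 points of Zwint lie on each other near 50 FPKM.

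The Ndc80 complex, the rod that binds microtubules at the outer kinetochore, was lower as a whole. Ndc80 (chromosome 17, 71496100 to 71526890, mm10), which carries the microtubule-binding head with Nuf2, stood at 5.31 FPKM with resveratrol, 15.9 FPKM in conditioned media and 9.98 FPKM in control. Nuf2 was at 3.80 FPKM with resveratrol, 13.6 FPKM in conditioned media and 13.2 FPKM in control. The library with resveratrol was the lowest for both, and control lay near conditioned media for Nuf2 but between the others for Ndc80. Spc24, at the end of the rod that faces the chromosome, was at 1.76 FPKM with resveratrol, 6.26 FPKM in conditioned media and 7.50 FPKM in control. Its partner Spc25 was at 8.59 FPKM with resveratrol, 25.0 FPKM in conditioned media and 18.2 FPKM in control. The log2 ratios of the 4 subunits lay between -1.61 and -1.40, so that each had between 27.8% and 34.4% of its conditioned media level. Ndc80 holds a small RNA gene on its own strand, so its level is uncertain.

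The chromosomal passenger complex, which corrects faulty attachments, held the lowest log2 ratio of the set. Birc5 (chromosome 11, 117849237 to 117855743), which encodes survivin, stood at 9.25 FPKM with resveratrol, 37.9 FPKM in conditioned media and 32.3 FPKM in control, a log2 ratio of -1.92 for resveratrol over conditioned media. Cdca8, which encodes borealin, was at 5.04 FPKM with resveratrol, 18.6 FPKM in conditioned media and 12.4 FPKM in control (log2 ratio -1.70). Incenp, the scaffold of the complex, was at 4.01 FPKM with resveratrol, 13.8 FPKM in conditioned media and 11.7 FPKM in control (log2 ratio -1.56). In each of the 3 genes resveratrol was the lowest library and conditioned media the highest. Aurkb, the kinase of the complex and not one of the 40, stood at 4.20 FPKM with resveratrol, 15.3 FPKM in conditioned media and 13.7 FPKM in control (log2 ratio -1.65).

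Cenpf and Cenpe, of the outermost layer or corona, were lower by the size rule. Cenpf (chromosome 1, 189640614 to 189688086), a large coiled-coil protein that is farnesylated, was at 2.2 FPKM with resveratrol, 9.67 FPKM in conditioned media and 5.79 FPKM in control. It had 22.8% of its conditioned media level, the smallest share among the 40. Cenpe, a kinesin that carries chromosomes to the middle of the spindle, was at 3.48 FPKM with resveratrol, 10.9 FPKM in conditioned media and 6.66 FPKM in control, with a log2 ratio of -1.41. Conditioned media was the highest library for both.

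Of 6 spindle checkpoint genes 3, all cycle-regulated, were lower by the size rule. Bub1, a checkpoint kinase, stood at 4.99 FPKM with resveratrol, 14.8 FPKM in conditioned media and 11.2 FPKM in control. Bub1b, which encodes BubR1 of the mitotic checkpoint complex, was at 4.11 FPKM with resveratrol, 14.7 FPKM in conditioned media and 10.6 FPKM in control. Ttk, the Mps1 kinase that starts checkpoint signalling, was at 2.85 FPKM with resveratrol, 9.36 FPKM in conditioned media and 6.96 FPKM in control. In these 3 genes resveratrol was the lowest library and conditioned media the highest, with log2 ratios between -1.62 and -1.40. Mad2l1, the Mad2 protein that changes shape to hold Cdc20, was at 10.6 FPKM with resveratrol, 18.5 FPKM in conditioned media and 20.9 FPKM in control, a log2 ratio of -0.75. Bub3, constitutive and the partner of Bub1 and BubR1, was at 32.9 FPKM with resveratrol, 46.9 FPKM in conditioned media and 44.8 FPKM in control (log2 ratio -0.50). Mad1l1, the Mad1 anchor of Mad2, ran the other way, at 13.2 FPKM with resveratrol, 9.93 FPKM in conditioned media and 16.0 FPKM in control (log2 ratio 0.38). The highest checkpoint gene stood 11.6 times above the lowest with resveratrol, 5.01 times in conditioned media and 6.44 times in control.

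Within the Ska complex, which keeps kinetochores on shortening microtubules, the subunits also differed by class. Ska1 was at 0.984 FPKM with resveratrol, 3.16 FPKM in conditioned media and 2.65 FPKM in control, and its log2 ratio of -1.07 was just inside the size rule. Ska3 was at 3.46 FPKM with resveratrol, 7.33 FPKM in conditioned media and 4.36 FPKM in control, and its log2 ratio of -0.90 was just outside. Ska2, placed as constitutive, was at 14.3 FPKM with resveratrol, 16.5 FPKM in conditioned media and 19.7 FPKM in control (log2 ratio -0.20). Its locus overlaps 14 other loci of the table and holds a small RNA gene, so its level is uncertain. The ratio of the highest to the lowest Ska subunit was 14.5 with resveratrol, 5.23 in conditioned media and 7.42 in control.

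The Mis12 complex, the bridge between inner and outer kinetochore, had no member past the size rule. The Mis12 subunit stood at 18.0 FPKM with resveratrol, 15.8 FPKM in conditioned media and 21.1 FPKM in control (log2 ratio 0.18). Its partner Dsn1 stood at 7.31 FPKM with resveratrol, 7.13 FPKM in conditioned media and 7.49 FPKM in control. Dsn1 was thus nearly level across the 3 libraries. The Nsl1 subunit was at 3.15 FPKM with resveratrol, 5.33 FPKM in conditioned media and 5.05 FPKM in control, a log2 ratio of -0.61. Pmf1, the fourth subunit, was at 8.72 FPKM with resveratrol, 13.5 FPKM in conditioned media and 14.1 FPKM in control, a log2 ratio of -0.58.

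The RZZ complex, which brings Mad1 and dynein to kinetochores, and its partner Zwint had no member past the size rule. Zw10, also a membrane traffic factor, was at 6.20 FPKM with resveratrol, 6.10 FPKM in conditioned media and 10.6 FPKM in control, so that both conditioned media libraries lay below control. Zwilch was at 5.14 FPKM with resveratrol, 8.71 FPKM in conditioned media and 7.51 FPKM in control (log2 ratio -0.66). Kntc1, the Rod subunit, was at 3.67 FPKM with resveratrol, 5.06 FPKM in conditioned media and 5.48 FPKM in control (log2 ratio -0.38). Zwint (chromosome 10, 72654846 to 72674964) was placed as cycle-regulated but stood at 50.3 FPKM with resveratrol, 49.7 FPKM in conditioned media and 49.6 FPKM in control. It was the highest of the cycle-regulated genes, and by FPKM the only one of the 40 whose resveratrol library was the highest of the 3.

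Centromeric chromatin gave one gene on each side. Cenpa (chromosome 5, 30666886 to 30674837), the histone H3 variant that marks the centromere, was at 12.2 FPKM with resveratrol, 32.5 FPKM in conditioned media and 21.0 FPKM in control, a log2 ratio of -1.35. Cenpb, which binds a short motif in centromeric satellite DNA, was at 69.2 FPKM with resveratrol, 77.1 FPKM in conditioned media and 86.4 FPKM in control (log2 ratio -0.15) and was the highest of the set in each library. The locus of Cenpb overlaps 12 other loci in the table, so its level is uncertain.

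The inner kinetochore network, known as CCAN, lay between outer complexes in its ratios. Of its 12 genes, 1 was lower by the size rule, and their median log2 ratio for resveratrol over conditioned media was -0.64. The median was -1.43 for the Ndc80 complex, -0.27 for the Mis12 complex and -0.18 for RZZ with Zwint. Among cycle-regulated genes alone, 0 of 6 inner kinetochore genes and 14 of 18 with other roles were lower, with medians of -0.55 and -1.41. The other roles include Cenpa and the passenger genes, so this is no contrast of inner with outer layer. The CCAN gene past the rule was Cenpl, part of the pair that reads CENP-A nucleosomes. Cenpl was at 3.19 FPKM with resveratrol, 8.12 FPKM in conditioned media and 5.81 FPKM in control (log2 ratio -1.12). Its partner Cenpn was at 3.66 FPKM with resveratrol, 5.54 FPKM in conditioned media and 5.35 FPKM in control (log2 ratio -0.49). Cenpc1, which joins CENP-A nucleosomes to the Mis12 complex, was at 9.02 FPKM with resveratrol, 12.3 FPKM in conditioned media and 10.8 FPKM in control (log2 ratio -0.40). These 3 genes shared the direction but only Cenpl was below 50% of its conditioned media level.

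Of the CENP-H, I, K and M group, Cenpi stood at 2.39 FPKM with resveratrol, 5.14 FPKM in conditioned media and 5.45 FPKM in control (log2 ratio -0.85). Its partner Cenpk was at 3.41 FPKM with resveratrol, 5.06 FPKM in conditioned media and 5.36 FPKM in control (log2 ratio -0.46). The level of Cenpm was 6.10 FPKM with resveratrol, 10.3 FPKM in conditioned media and 7.25 FPKM in control (log2 ratio -0.67). Resveratrol was the lowest library for the 3, and none passed the size rule. Cenph was the exception, at 4.94 FPKM with resveratrol, 3.43 FPKM in conditioned media and 5.51 FPKM in control (log2 ratio 0.42). It is the gene that the authors' deposited table calls higher, with a q-value of 0.0367. Cenpt, a histone-fold protein that also recruits the Ndc80 complex, was at 6.86 FPKM with resveratrol, 11.9 FPKM in conditioned media and 9.37 FPKM in control (log2 ratio -0.72). Cenpw, its histone-fold partner, was at 4.08 FPKM with resveratrol, 6.81 FPKM in conditioned media and 4.42 FPKM in control (log2 ratio -0.62). The genes of the CENP-O group, which takes part in recovery from spindle damage, had log2 ratios between -0.69 and -0.48. Cenpo was at 2.57 FPKM with resveratrol, 3.99 FPKM in conditioned media and 2.89 FPKM in control. The second gene, Cenpp, was at 4.95 FPKM with resveratrol, 8.57 FPKM in conditioned media and 6.65 FPKM in control. For Cenpq the levels were 7.96 FPKM with resveratrol, 13.5 FPKM in conditioned media and 12.2 FPKM in control. Of the genes of this group and of CENP-T and CENP-O, Cenph was the one whose lowest library was conditioned media. The loci of Cenpk, Cenpo, Cenpp, Cenpt, Mis12, Ska3 and Zwilch overlap between 1 and 5 other loci of the table, and whether strand was used is not known.

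**Figure D2:**
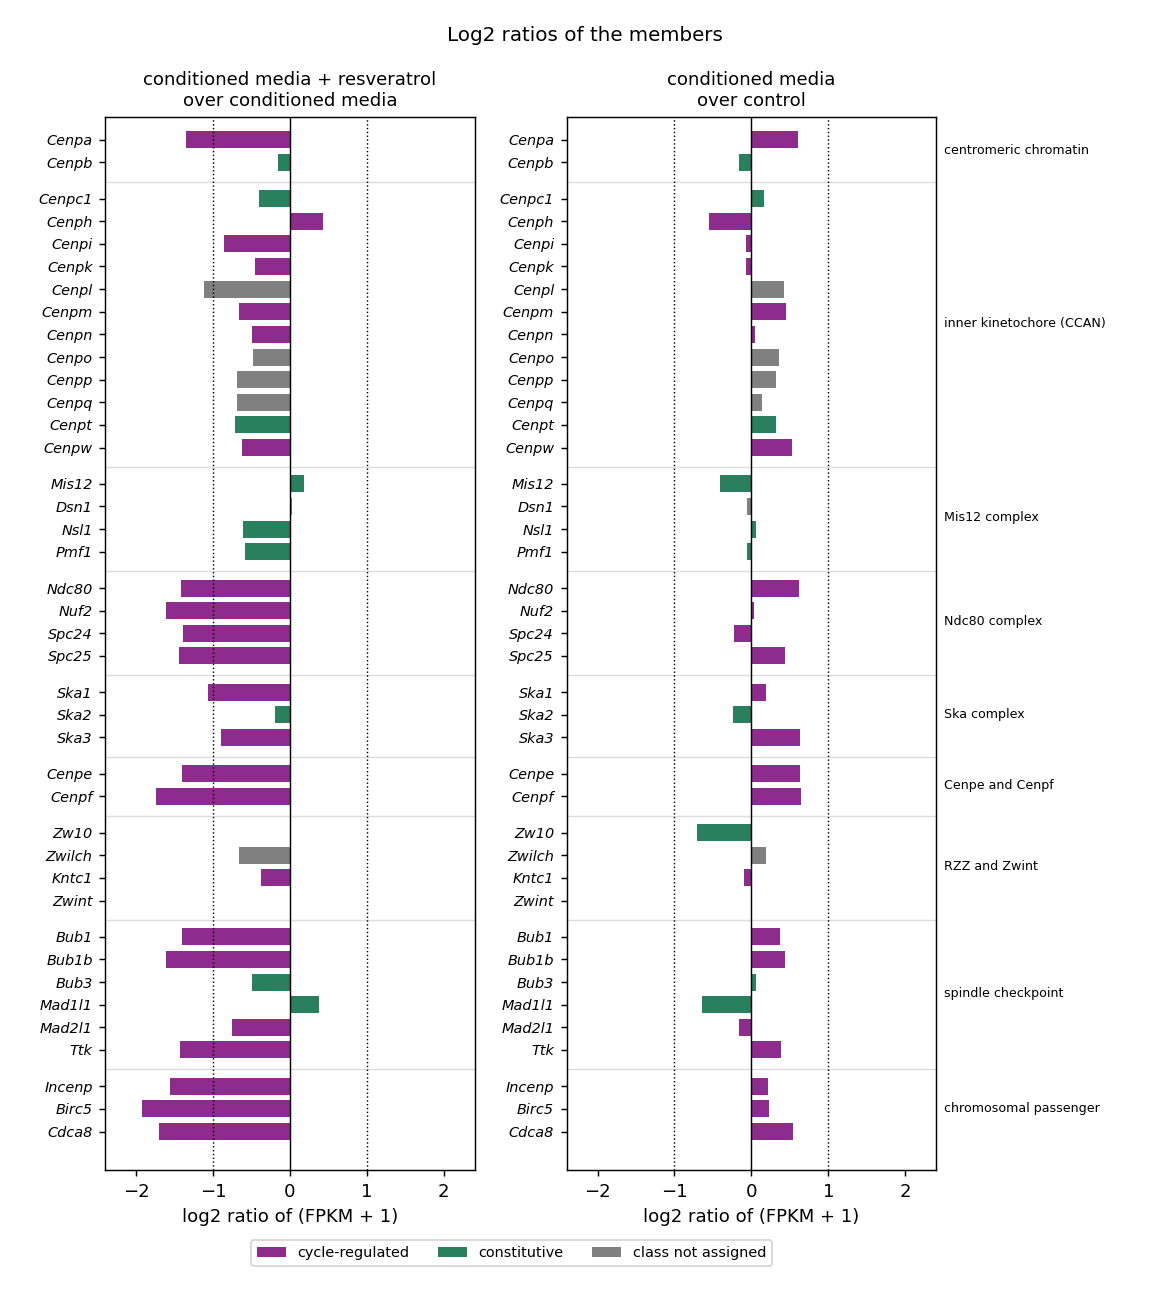
Log2 ratio of (FPKM + 1) for each gene, grouped by role, for conditioned media with resveratrol over conditioned media (left) and conditioned media over control (right), coloured by class, with dotted lines at -1 and 1. On the left 14 purple (cycle-regulated) bars and the grey bar of Cenpl pass -1 and no green (constitutive) bar does, and on the right no bar reaches either line.

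Between conditioned media alone and control the differences were smaller. By the size rule 0 of 40 genes were higher and 0 lower, where 1.98% of 11858 loci were higher and 0.751% lower. With a limit of 1.5-fold, 5 were higher and 2 lower, where 12.3% of all loci passed in either direction, a share near that of the members. Of the 40 genes, 17 are called higher and 5 lower in the authors' deposited table, against 25.8% and 29.9% of 10982 loci tested there. The median log2 ratio was 0.30 for cycle-regulated and -0.11 for constitutive genes, against -0.01 for all loci. The class difference was 0.41, and it was 0.24 when the unplaced genes were counted as constitutive.

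Conditioned media lay above control for 5775 of 11858 loci with a mean of 1 FPKM or more. Among the members it was above control for 18 of 24 cycle-regulated and 4 of 10 constitutive genes. After FPKM were rescaled to TPM, in which each library has the same total and which shifts this comparison by 0.20 on the log2 scale and the median of all loci by 0.15, these were 22 of 24 and 6 of 10, and Cenpb, Cenpi, Cenpk, Dsn1, Pmf1, Kntc1 and Mad2l1 lay on the other side of 0. The highest ratios were those of Cenpf, Ska3, Cenpe, Ndc80 and Cenpa, between 0.61 and 0.65. Ska3 had 168% of its control level and Cenpa 155%. At the low end stood Zw10 with 57.5% of control, Mad1l1 with 62.1% and Cenph with 62.2%, and the log2 ratio of Zw10 was -0.71. These 3 genes were lower than control under either scaling. Loci of 200 bases or less held 78.4% of the FPKM sum with resveratrol, 79.3% in conditioned media and 83.0% in control. These sums set the rescaling to TPM, so it follows mainly such short loci.

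Resveratrol in conditioned media over control gave 10 genes lower and 0 higher by the size rule, where 5.25% of 11858 loci were lower and 3.6% higher. The 10 were all cycle-regulated. After rescaling to TPM the count was 3 of 40, where 4.83% of all loci passed the rule in either direction. The rescaling shifts this comparison by 0.195 on the log2 scale and the median of all loci by 0.14. TPM values also sum to less than these FPKM values, so the pseudocount of 1 weighs more on them. Both lower the count, and their shares in it were not separated. At a pseudocount of 5 the count in FPKM was 2 of 40, where 3.29% passed, so that under both settings the members' share was near that of all loci. The authors' deposited table calls 31 of the 40 lower and 0 higher, where it calls 34.1% of 10939 tested loci in each direction. The median log2 ratio was -0.90 for cycle-regulated and -0.42 for constitutive genes, with all loci near 0. In FPKM 39 of 40 genes were below control, where 5919 of 11858 loci were. After rescaling to TPM 35 of the 40 genes were below control, and Cenph, Cenpo, Cenpw and Dsn1 had moved above it. Over control, Birc5 had the lowest ratio, -1.70, followed by Spc24 at -1.62, Nuf2 at -1.57 and Incenp at -1.34. This comparison shares its libraries with the others.

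The order of the 3 libraries by FPKM repeats over much of the set. In 26 genes conditioned media was highest, control next and resveratrol lowest, and 17 of these were cycle-regulated. In 8 genes control was highest and resveratrol lowest. Control was the highest library in 6 of 10 constitutive genes and in 6 of 24 cycle-regulated genes. The share of all loci with each order was not computed. These orders are those of FPKM, and rescaling to TPM moves the genes named above to the other side of control.

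**Figure D3:**
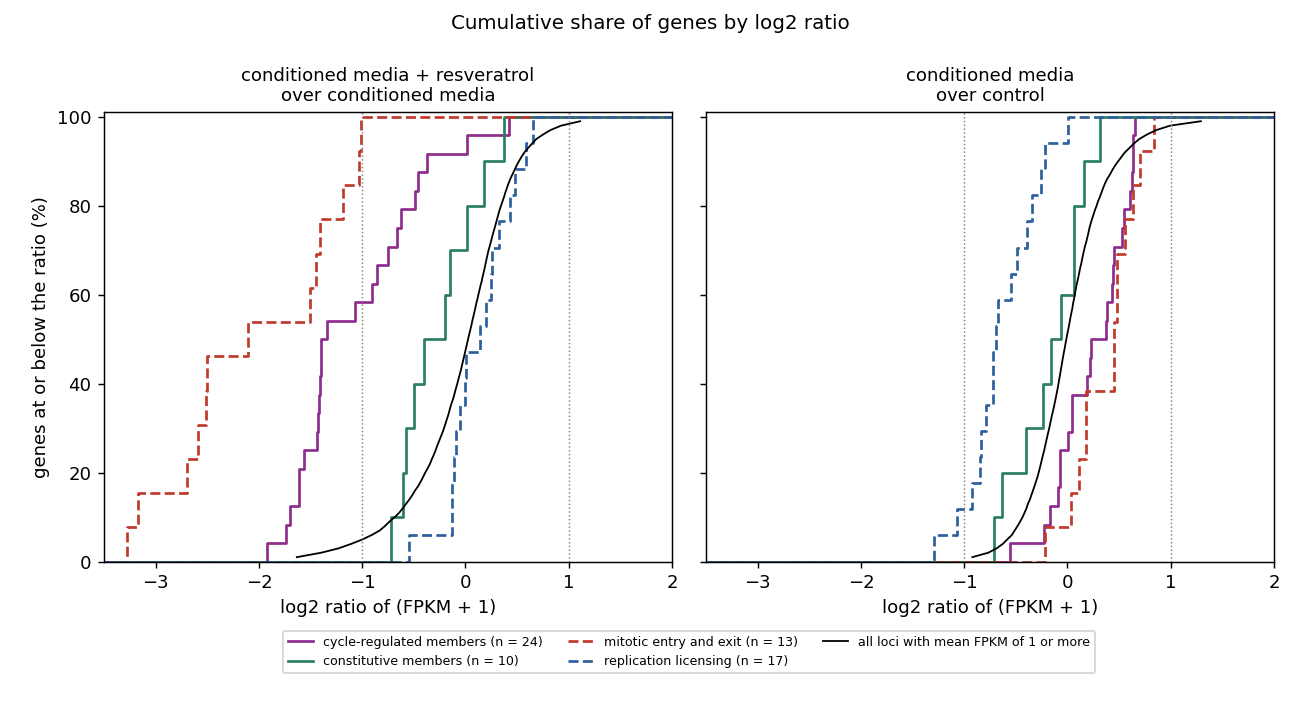
Cumulative share of genes (%) by log2 ratio of (FPKM + 1), for conditioned media with resveratrol over conditioned media (left) and conditioned media over control (right), with lines for cycle-regulated and constitutive members, 13 mitotic entry and exit genes, 17 replication licensing genes and all loci with a mean of 1 FPKM or more. On the left the mitotic entry and exit line lies farthest to low ratios, the cycle-regulated line next, and the constitutive and licensing lines nearer to all loci.

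Of a list of 22 other genes of the pathway, 21 were analysed, each with a mean of 1 FPKM or more. For resveratrol over conditioned media 5 were lower and 0 higher by the size rule, where 4.97% of 11858 loci were lower and 1.53% higher. Their median log2 ratio was -0.31. Sgol2a, a shugoshin that protects centromeric cohesion, stood at 1.95 FPKM with resveratrol, 10.2 FPKM in conditioned media and 6.59 FPKM in control (log2 ratio -1.92). Its relative Sgol1 stood at 2.44 FPKM with resveratrol, 7.76 FPKM in conditioned media and 6.15 FPKM in control (log2 ratio -1.35). Resveratrol was the lowest library for both. Casc5, the Knl1 scaffold to which the Bub proteins bind, was at 2.44 FPKM with resveratrol, 6.29 FPKM in conditioned media and 4.91 FPKM in control (log2 ratio -1.08). Aurkb, given above, was also lower by the size rule. Rcc2, a regulator of the passenger complex, was at 30.2 FPKM with resveratrol, 55.1 FPKM in conditioned media and 62.3 FPKM in control (log2 ratio -0.85).

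Neighbouring cell cycle groups frame the set, though their lists, like all lists here, were chosen with earlier results of these data known. Of 13 mitotic entry and exit genes, 13 were lower by the size rule for resveratrol over conditioned media, where 4.97% of 11858 loci were. Their median log2 ratio was -2.10, against -1.37 for the cycle-regulated kinetochore genes. Their summed level with resveratrol was 20.1% of that in conditioned media, against 47.0% for the cycle-regulated kinetochore genes. Of 17 replication licensing genes, 0 were lower and 0 higher, and their median was 0.14. Against control, conditioned media had a median of 0.45 for the first list and -0.69 for the second. No test of these differences was possible with 1 library a group.

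Markers of the cells in the culture differed as well. Of 4 proliferation markers 2 were lower with resveratrol than in conditioned media by the size rule, where 4.97% of 11858 loci were lower and 1.53% higher. Top2a, a topoisomerase, stood at 12.5 FPKM with resveratrol, 59.3 FPKM in conditioned media and 47.4 FPKM in control, and the level of Tk1, thymidine kinase, was 5.83 FPKM with resveratrol, 19.2 FPKM in conditioned media and 27.4 FPKM in control. Mki67 was at 10.3 FPKM with resveratrol, 18.6 FPKM in conditioned media and 15.8 FPKM in control (log2 ratio -0.80). Pcna, the sliding clamp of DNA replication, lay on the other side, at 110.0 FPKM with resveratrol, 81.2 FPKM in conditioned media and 134 FPKM in control (log2 ratio 0.43). Of 6 reserve cell or myoblast markers with a mean of 1 FPKM or more, 2 were lower and 0 higher. Their median log2 ratio for resveratrol over conditioned media was -0.32, with 4 below 0 and 2 above. The 2 lower were Myf5, at -1.47, and Notch3, at -1.03, and the 2 above 0 were Vcam1, at 0.65, and Sdc4, at 0.57. The 7 listed summed to 326 FPKM with resveratrol, 269 FPKM in conditioned media and 210 FPKM in control. Of these sums, Sdc4 alone gave 174 FPKM with resveratrol, 117 FPKM in conditioned media and 80.6 FPKM in control. Myotube markers (9 genes) summed to 3972 FPKM with resveratrol, 2680 FPKM in conditioned media and 2919 FPKM in control, with Acta1 alone at 2272 FPKM with resveratrol, 1496 FPKM in conditioned media and 1568 FPKM in control. For resveratrol over conditioned media 7 of the 9 lay above 0 and 2 below, with a median log2 ratio of 0.33 and 1 gene higher by the size rule. The 2 below were Ttn, at -0.41, and Ckm, at -0.37. Fibroblast markers (5 genes) summed to 1174 FPKM with resveratrol, 2117 FPKM in conditioned media and 1837 FPKM in control, and 4 of 4 with a mean of 1 FPKM or more lay below 0 for resveratrol over conditioned media. Of the fibroblast sum with resveratrol, Col1a1 gave 527 FPKM and Col1a2 596 FPKM. None of the markers of these 4 lists was at 0 in any library, but some were close to it. Thy1 was at 0.036 FPKM with resveratrol, 0.036 FPKM in conditioned media and 0.070 FPKM in control. The level of Pax7 was 0.271 FPKM with resveratrol, 0.699 FPKM in conditioned media and 1.04 FPKM in control. The part of cell make-up in the kinetochore result was not tested.

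Many genes transcribed late in the cell cycle carry a CHR (cell cycle genes homology region) element, TTTGAA, near their start, often with CCAAT boxes upstream. RefSeq promoter windows of GRCm38.p6, 250 bases before to 50 bases after the start, were matched by symbol to 35 of the 40 genes and searched on both strands. Shorter windows, 70 bases before to 30 after the start and written 5′ to 3′ along the gene's strand, show where the motif lies. The genes printed were picked as examples and do not stand for the whole set. Nuf2, Cenpe, Bub1 and Birc5 were lower by the size rule without a match within 50 bases of the start. Cenpn, Cenpw, Ska3 and Kntc1 had such a match and were not lower by it. The windows hold TTTGAA or its reverse complement in capitals for 5 genes past the size rule. Zwint and Cenpb, which were near their conditioned media level, have no match.
Cenpa (chr5:30666816-30666915, + strand): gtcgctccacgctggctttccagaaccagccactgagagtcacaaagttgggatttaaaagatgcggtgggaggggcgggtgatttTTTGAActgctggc
Cenpf (chr1:189688057-189688156, - strand): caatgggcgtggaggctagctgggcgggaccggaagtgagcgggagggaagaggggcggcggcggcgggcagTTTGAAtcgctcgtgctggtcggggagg
Spc25 (chr2:69206184-69206283, - strand): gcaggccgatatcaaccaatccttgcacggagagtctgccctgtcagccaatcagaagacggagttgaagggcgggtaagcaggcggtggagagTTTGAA
Ttk (chr9:83834619-83834718, + strand): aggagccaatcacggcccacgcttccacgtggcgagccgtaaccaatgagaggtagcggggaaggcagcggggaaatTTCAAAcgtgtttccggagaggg
Cdca8 (chr4:124936888-124936987, - strand): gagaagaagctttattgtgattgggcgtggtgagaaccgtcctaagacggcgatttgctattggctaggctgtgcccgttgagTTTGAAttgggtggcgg
Zwint (chr10:72654776-72654875, + strand): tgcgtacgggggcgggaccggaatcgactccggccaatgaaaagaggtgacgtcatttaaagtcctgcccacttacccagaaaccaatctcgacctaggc
Cenpb (chr2:131180038-131180137, - strand): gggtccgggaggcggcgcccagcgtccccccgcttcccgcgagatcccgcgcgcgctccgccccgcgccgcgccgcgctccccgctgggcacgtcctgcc

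In the window of 300 bases, TTTGAA stood in 11 of 21 cycle-regulated genes, 3 of 9 constitutive genes and 1 of 5 unplaced genes, where 18.1% of 27025 promoters hold it. Within 50 bases on either side of the start the counts were 11 of 21, 1 of 9 and 0 of 5, where 4.92% of promoters hold it. These promoters are the first listed of every symbol, expressed here or not. For the members the start nearest to the locus was taken, so the sets are not fully alike. CCAAT stood in 16 of 21 cycle-regulated and 5 of 9 constitutive windows of 300 bases, where 37.9% of promoters hold it. The E2F-type motifs TTTGGCGC and TTTCGCGC stood in 0 of 21 cycle-regulated and 0 of 9 constitutive windows, where 0.537% and 0.318% of promoters hold them, and Cenpl held the first. Each motif was counted whether or not its match overlapped that of another, and a match is a description of letters, not a binding site.

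Cycle-regulated genes with TTTGAA within 50 bases of the start had a median log2 ratio of -1.42 for resveratrol over conditioned media, with 7 of 11 lower by the size rule. Those without it had a median of -0.80, with 4 of 10 lower, among them Birc5 at -1.92. Spc24, Ska1 and Incenp, cycle-regulated and lower by the size rule, had no promoter window and are in neither group. The side of the start was looked at after the values were seen. With the match after the start, 7 of 7 genes were lower, between -1.74 and -1.35 (Cenpa, Ndc80, Spc25, Cenpf, Bub1b, Ttk and Cdca8). With the match before the start, 0 of 4 were lower, between -0.90 and -0.38 (Cenpn, Cenpw, Ska3 and Kntc1). Matches before the start all lay on the opposite strand. Those after it lay on the gene's strand except in Ndc80 and Ttk, so side and strand are largely mixed. Among genes outside the set with a mean of 1 FPKM or more, 25 of 111 with the match after the start were lower, or 22.5%. With it before the start 18 of 125 were lower, or 14.4%, and with neither 293 of 8274, or 3.54%. The lowest log2 ratio among these other genes was -3.17 with the match after the start and -3.28 with it before.

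**Figure D4:**
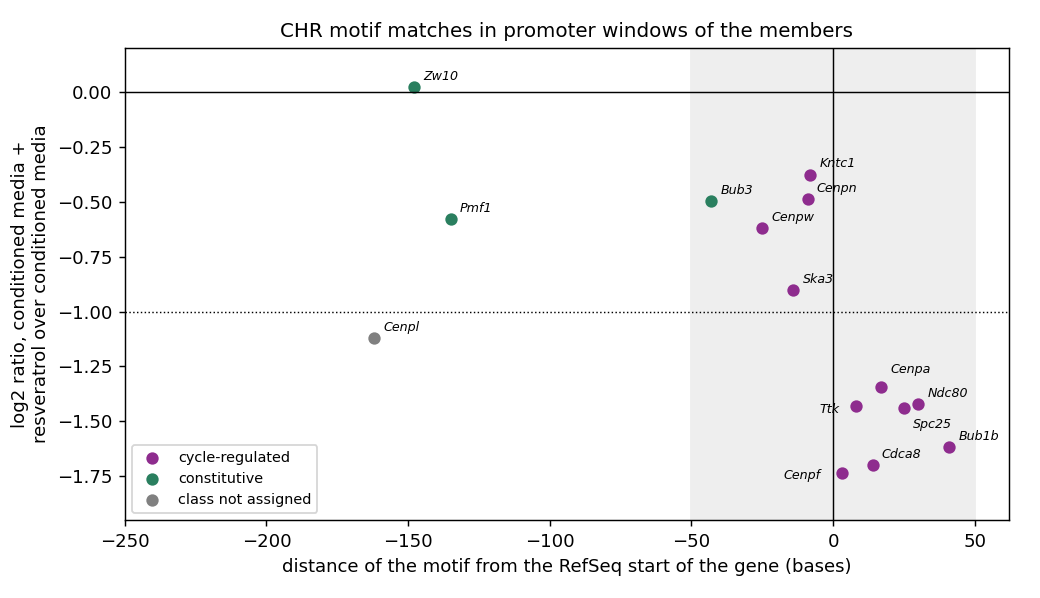
Distance in bases of each TTTGAA match (either strand) from the RefSeq start, against the log2 ratio of conditioned media with resveratrol over conditioned media, 1 point per match, coloured by class, with the 50 bases on either side of the start shaded and a dotted line at -1. The 7 cycle-regulated genes with a match after the start lie between -1.74 and -1.35, and the 4 with a match before it lie above the dotted line.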

How the data were processed

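FPKM per locus and library come from the authors' table, a Cuffdiff gene output per the file headers. The submitters' processing notes name FastQC 0.69, Trim Galore 0.4.3.1, Bowtie, TopHat2 2.1.0, Cuffdiff 2.2.1.3, Cufflinks 2.2.1.0 and the build mm10. How libraries were scaled, the annotation and whether strand was used are not given in these sources. The log2 fold changes (no pseudocount), the test statistic (a score), and the p-values and q-values in the deposited table are the authors' Cuffdiff values between single libraries, with a smallest p of 5e-05. Depth is unknown. A search of 3780 low loci for steps of whole reads found the same ratio between libraries in at most 8.

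Libraries were grouped by their treatment labels. Log2 ratios were computed as log2((FPKM + 1)/(FPKM + 1)) for loci with a mean of 1 FPKM or more, in Python 3.11.15 with pandas 2.3.3. No test was possible with 1 library a group. Starts in the table count from 0 (10497 of 22463 symbols match the RefSeq start after adding 1, and 617 without) and were converted. Of the 40 genes, 9 overlap another locus and 2 contain an annotated small RNA (200 bases at most). The members, classes, roles and lists were chosen with earlier results of these data known. All members are named, and up to 6 genes of each other list by size of the resveratrol ratio, of which 1 is not reported here. Alternatives were other pseudocounts, filters, TPM, centring, summed loci, loci without overlap and other class borders.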

Additional observations from a re-analysis of the deposited data

How the results depend on the processing

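Of 90 recomputed values (counts past the size rule, medians and class differences under 12 alternatives), 75 stayed within 1.5 times the reported value, 15 moved further and none changed sign. At a pseudocount of 5, the count for resveratrol over conditioned media was 9, its median -0.45 and its class difference -0.58. For resveratrol over control that setting gave a count of 2 and a class difference of -0.26, and for conditioned media over control a median of 0.12. After rescaling to TPM, resveratrol over control gave a count of 3, a median of -0.29 and a class difference of -0.31, and conditioned media over control a median of 0.28. Rescaling shifts conditioned media over control by 0.196 and resveratrol over control by 0.195 on the log2 scale. TPM values also sum to less than these FPKM values, so a pseudocount of 1 weighs more on them. Counting the unplaced genes as constitutive gave a class difference of 0.24 for conditioned media over control, and counting them as cycle-regulated gave -0.68 for resveratrol over conditioned media. A limit of 1.5-fold, added after seeing the data, gave counts of 25, 7 and 19 for resveratrol over conditioned media, conditioned media over control and resveratrol over control, where 20.2%, 12.3% and 25.4% of all loci passed. No paired analysis was possible because each group held 1 library. With neither replicates nor read counts, the error of single values, above all of genes near 1 FPKM such as Ska1 and Spc24 with resveratrol, could not be given.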

Other observations

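Of a list of 14 regulators of late cell cycle transcription, 13 were analysed, each with a mean of 1 FPKM or more. For resveratrol over conditioned media 0 were lower and 0 higher by the size rule, where 4.97% of 11858 loci were lower and 1.53% higher. Their median log2 ratio was -0.17. E2f8, a repressor of the E2F family, stood at 4.17 FPKM with resveratrol, 8.98 FPKM in conditioned media and 11.6 FPKM in control (log2 ratio -0.95). The related repressor E2f7 stood at 1.61 FPKM with resveratrol, 3.60 FPKM in conditioned media and 4.09 FPKM in control (log2 ratio -0.82). Rbl1, the pocket protein p107, was at 3.68 FPKM with resveratrol, 7.21 FPKM in conditioned media and 9.33 FPKM in control (log2 ratio -0.81). In these 3 genes the library with resveratrol was lowest and control highest. E2f2, an E2F activator, was at 2.96 FPKM with resveratrol, 5.61 FPKM in conditioned media and 13.8 FPKM in control (log2 ratio -0.74), and it was the gene of the list that was lower in conditioned media than in control by the size rule. Mybl2, the B-Myb activator of late cell cycle genes, was at 1.23 FPKM with resveratrol, 2.26 FPKM in conditioned media and 3.52 FPKM in control (log2 ratio -0.55). Lin52, a subunit of the MuvB core that binds CHR elements, ran the other way, at 9.89 FPKM with resveratrol, 4.91 FPKM in conditioned media and 6.64 FPKM in control (log2 ratio 0.88). Log2 ratios are those of resveratrol over conditioned media.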
